A study of Mus musculus with 12 samples.

Results

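The genes described here are the 5 subunits of the transcription factor NF-kappaB (Nfkb1, Nfkb2, Rela, Relb and Rel) and 5 of its inhibitors or regulators (Nfkbia, Nfkbie, Nfkbiz, Tnfaip3 and Bcl3). They were taken by gene symbol from the deposited tables, which hold 56691 genes for each cell line, and each of the 10 had 1 row in each table. All 10 are protein-coding and passed the filter on low counts in both lines. Among the subunits, Nfkb1 (ENSMUSG00000028163) lies on chromosome 3, Nfkb2 (ENSMUSG00000025225) on chromosome 19, Rela (ENSMUSG00000024927) on chromosome 19, Relb (ENSMUSG00000002983) on chromosome 7 and Rel (ENSMUSG00000020275) on chromosome 11. Among the inhibitors, Nfkbia (ENSMUSG00000021025) lies on chromosome 12, Nfkbie (ENSMUSG00000023947) on chromosome 17, Nfkbiz (ENSMUSG00000035356) on chromosome 16, Tnfaip3 (ENSMUSG00000019850) on chromosome 10 and Bcl3 (ENSMUSG00000053175) on chromosome 7. Messenger RNA was sequenced from 4 groups of 3 libraries: 4T1 KO, 4T1 control, EMT6 KO and EMT6 control. 4T1 and EMT6 are mouse mammary carcinoma lines grown here in culture in DMEM with serum. KO cells carry a guide labelled sgNEDD4, aimed at the ubiquitin ligase gene Nedd4, and controls are labelled WT. The groups carry no other labelled allele or treatment and share 1 batch label. The labels do not say whether the KO cells are 1 clone or a pool, or whether the 3 libraries of a group are separate cultures, so the p-values measure only the spread between these libraries.

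NF-kappaB is a dimer of subunits that share a DNA-binding Rel homology region. In resting cells inhibitors with ankyrin repeats hold it in the cytoplasm. In the canonical route, receptors for tumour necrosis factor, interleukins or microbial products activate a kinase complex that marks the inhibitor Nfkbia for degradation, which frees dimers of Rela or Rel with the product of Nfkb1. In the alternative route, the kinase Map3k14 builds up and drives processing of the Nfkb2 precursor, whose product pairs with Relb. Several of these genes, Nfkbia and Tnfaip3 among them, are themselves NF-kappaB targets and close feedback loops. In carcinoma cells the targets include chemokines, colony-stimulating factors and survival genes.

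The libraries held 13705612 to 19761604 counts. Nedd4 stood at 24.7 to 25.3 FPKM in 4T1 KO and 93.5 to 97.6 FPKM in 4T1 control libraries, and at 11.5 to 12.1 FPKM in EMT6 KO and 116.5 to 122.5 FPKM in EMT6 control libraries. FPKM are counts scaled to a gene's exonic length and to the library's total count. Of 8 markers of mammary carcinoma cells, Krt5 was at 0 in every library, and Cdh1, the epithelial cadherin, averaged 0.00667 FPKM in both EMT6 KO and EMT6 control cells (142 in 4T1 KO and 136 in 4T1 control cells). Of the 6 of these markers tested in EMT6, 1 was called higher and 4 lower in KO cells (median log2 change -1.41). Krt8 was the 1 called higher, at 352 FPKM in KO and 293 FPKM in control cells. Epcam (-1.59), Krt18 (-1.23), Krt14 (-3.15) and Krt7 (-1.98) were called lower. Krt18 stood at 32.5 FPKM in KO and 76.2 FPKM in control cells. The other lower markers had low levels in both groups: Epcam 0.397 FPKM in KO and 1.19 in control cells, Krt14 0.103 and 0.95, and Krt7 0.687 and 2.72. In 4T1, 4 of 7 tested were called, each of them lower, and the summed FPKM of the list was 1410 to 1490 in KO and 1930 to 2010 in control libraries. The part of these markers in the results was not tested. Among leukocyte markers, Cd3e was at 0 in every library and Ptprc averaged at most 0.04 FPKM in any group.

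Start-site sequences were looked up because several members are known NF-kappaB targets. RefSeq promoter windows (build GRCm38.p6, from 250 bases before to 50 after a start site) were at hand for 7 of the 10 genes: Nfkb2, Rela, Rel, Nfkbia, Nfkbie, Tnfaip3 and Bcl3. The 10-base kappaB consensus was searched on both strands. It occurred in at least 1 window of 6 of these 7 genes, all but Rela. It occurred in 8.46% of all 32851 windows and in at least 1 window of 9.55% of 27025 genes. The windows of 4 genes that rose and 1 that fell in EMT6 KO cells follow in gene orientation, with each stretch that matches the consensus in capitals. They lie at chr19:46304487-46304786 on the plus strand (Nfkb2, the first of 3 windows), chr12:55492598-55492897 on the minus strand (Nfkbia), chr17:45555450-45555749 on the plus strand (Nfkbie), chr10:19015361-19015660 on the minus strand (Tnfaip3, the first of 2 windows) and chr7:19822706-19823005 on the minus strand (Bcl3).
Nfkb2: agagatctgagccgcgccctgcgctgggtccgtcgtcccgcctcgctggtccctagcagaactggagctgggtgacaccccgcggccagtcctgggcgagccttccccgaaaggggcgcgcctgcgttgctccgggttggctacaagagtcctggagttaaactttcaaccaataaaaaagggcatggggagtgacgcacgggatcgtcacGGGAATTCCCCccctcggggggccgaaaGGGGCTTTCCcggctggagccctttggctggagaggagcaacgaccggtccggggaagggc
Nfkbia: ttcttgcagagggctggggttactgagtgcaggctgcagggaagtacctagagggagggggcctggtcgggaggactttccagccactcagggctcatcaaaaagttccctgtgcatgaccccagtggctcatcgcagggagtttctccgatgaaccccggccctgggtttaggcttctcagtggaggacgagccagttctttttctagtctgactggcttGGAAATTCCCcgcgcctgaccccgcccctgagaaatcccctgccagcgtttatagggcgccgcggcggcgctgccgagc
Nfkbie: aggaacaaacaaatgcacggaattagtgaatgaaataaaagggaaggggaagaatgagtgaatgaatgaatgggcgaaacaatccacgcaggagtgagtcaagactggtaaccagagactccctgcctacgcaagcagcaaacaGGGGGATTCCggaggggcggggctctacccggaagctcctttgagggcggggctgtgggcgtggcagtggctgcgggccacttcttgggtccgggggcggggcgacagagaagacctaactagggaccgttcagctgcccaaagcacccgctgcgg
Tnfaip3: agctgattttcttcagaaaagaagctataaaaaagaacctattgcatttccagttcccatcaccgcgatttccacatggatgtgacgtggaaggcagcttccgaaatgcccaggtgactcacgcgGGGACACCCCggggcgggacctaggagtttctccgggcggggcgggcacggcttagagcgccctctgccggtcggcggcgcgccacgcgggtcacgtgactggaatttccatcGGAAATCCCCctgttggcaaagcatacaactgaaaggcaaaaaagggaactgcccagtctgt
Bcl3: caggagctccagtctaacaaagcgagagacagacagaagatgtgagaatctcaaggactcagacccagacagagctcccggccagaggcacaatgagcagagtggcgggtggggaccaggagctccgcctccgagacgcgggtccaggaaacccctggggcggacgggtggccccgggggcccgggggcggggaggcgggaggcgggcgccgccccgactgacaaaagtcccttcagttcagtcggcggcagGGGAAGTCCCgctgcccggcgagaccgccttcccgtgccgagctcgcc
Matching stretches begin 39 and 11 bases before the start site of Nfkb2, 29 before that of Nfkbia, 106 before that of Nfkbie, and 125 and 12 before that of Tnfaip3. In Bcl3 the match begins 2 bases after the start site. Overlapping matches were merged into 1 stretch. A match is a description of the letters, and binding was not measured in these libraries. The 4 genes printed here that rose and the 1 that fell all hold a match, and so does Rel, which also fell. Rela rose and holds none, and no window was at hand for Nfkb1, Relb and Nfkbiz. Whether matches go with the direction of change was not tested.

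In EMT6 KO cells, 6 of the 10 genes rose and 4 fell. The rise took in Nfkb2 and Relb, the pair of the alternative route, together with Rela, Nfkbia, Nfkbie and Tnfaip3. Only RNA was measured here. Protein levels, processing of the Nfkb2 precursor and the activity of either route were not. Nfkbiz and Bcl3, nuclear proteins of the inhibitor family, fell to 21.4% and 29.7% of the control level, and Nfkb1 and Rel fell less. A gene is called where edgeR's quasi-likelihood test gives a Benjamini-Hochberg adjusted p under 0.05 over all genes tested in that line. In EMT6, 56% of 12890 tested genes were called, 27.9% higher and 28.2% lower, so a call by itself is common. Changes of at least 1 on the log2 scale were made by 5 of the 10 genes, against 10% of all tested genes.

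Among the subunits of EMT6, Nfkb2, the precursor subunit of the alternative route, stood at 40.0, 38.5 and 41.6 FPKM in KO libraries, against 19.5, 22.0 and 20.1 FPKM in control libraries. All KO libraries lay above all controls. The log2 change was 0.96 ± 0.06 (SE, n = 3 per group; edgeR, adjusted p = 2.12e-09). Relb, its usual partner, stood at 8.86, 8.86 and 9.45 FPKM in KO libraries, against 3.63, 3.0 and 3.71 FPKM in controls. The log2 change of Relb was 1.40 ± 0.09 (edgeR, adjusted p = 3.18e-09), again with no overlap of the groups. Rela, the main activating subunit of the canonical route, rose less. It had 31.2, 32.6 and 29.2 FPKM in KO libraries and 25.8, 24.5 and 26.1 FPKM in control libraries, a log2 change of 0.29 ± 0.06 (edgeR, adjusted p = 0.000846).

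The other subunits of EMT6 fell. Nfkb1, the precursor subunit of the canonical route, had 8.47, 8.51 and 8.24 FPKM in KO libraries and 10.4, 10.8 and 10.9 FPKM in controls, a log2 change of -0.35 ± 0.06 (edgeR, adjusted p = 4.88e-05). Rel, an activating subunit known best from lymphoid cells, had 3.57, 3.65 and 3.46 FPKM in KO libraries and 5.11, 4.58 and 4.60 FPKM in controls, a log2 change of -0.41 ± 0.08 (edgeR, adjusted p = 0.000263). Neither gene's groups overlapped. Non-overlap of KO and control FPKM is common here, at 62.3% of all tested EMT6 genes. In bulk RNA, a smaller share of cells that express a gene and less RNA of it per cell cannot be told apart.

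The inhibitors of EMT6 went both ways. Nfkbie, a cytoplasmic inhibitor that is degraded on stimulation, made the largest increase of the 10 genes. It had 18.0, 17.5 and 17.4 FPKM in KO libraries, against 3.81, 3.92 and 3.80 FPKM in controls. The log2 change was 2.2 ± 0.08 (edgeR, adjusted p = 1.62e-12), a 4.60-fold difference that ranked number 130 among the changes of 12890 genes ordered from the highest. Tnfaip3, a ubiquitin-editing enzyme that shuts the canonical route, had 12.2, 11.8 and 13.9 FPKM in KO libraries and 5.94, 6.08 and 5.45 FPKM in controls, a log2 change of 1.12 ± 0.08 (edgeR, adjusted p = 3.38e-09). Nfkbia, the first-line cytoplasmic inhibitor, varied more between libraries. It had 36.5, 35.4 and 41.7 FPKM in KO libraries and 27.7, 32.5 and 24.5 FPKM in controls. The groups did not overlap, and the log2 change was 0.42 ± 0.10 (edgeR, adjusted p = 0.0034).

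Nfkbiz and Bcl3 are inhibitor-family proteins that act in the nucleus and can promote transcription of some targets. Nfkbiz had 6.52, 5.99 and 8.19 FPKM in EMT6 KO libraries, against 35.3, 32.1 and 29.1 FPKM in controls. Every control library held over 3 times the highest KO value. The log2 change was -2.22 ± 0.11 (edgeR, adjusted p = 4.26e-08). Bcl3 had 5.70, 5.85 and 6.13 FPKM in EMT6 KO libraries and 20.98, 21.5 and 17.0 FPKM in controls, a log2 change of -1.75 ± 0.10 (edgeR, adjusted p = 3.46e-10). Control replicate 3 was the lowest of the controls for both genes, and still lay far above the KO libraries. Bcl3 overlaps Gm16174 and Gm16175 on the other strand in the tables' coordinates, and Nfkb2 overlaps Psd and 4833438C02Rik, also on the other strand. No source used here gives the strand setting of the counting, so reads of these partners may be shared. Their highest FPKM in EMT6 was 1.74 for Gm16174 and 4.26 for 4833438C02Rik. In 4T1, Gm16174 reached 4.55 FPKM, above every 4T1 value of Bcl3 (2.34 to 3.99 FPKM), and reads of the pair cannot be told apart there.

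**Figure D1:**
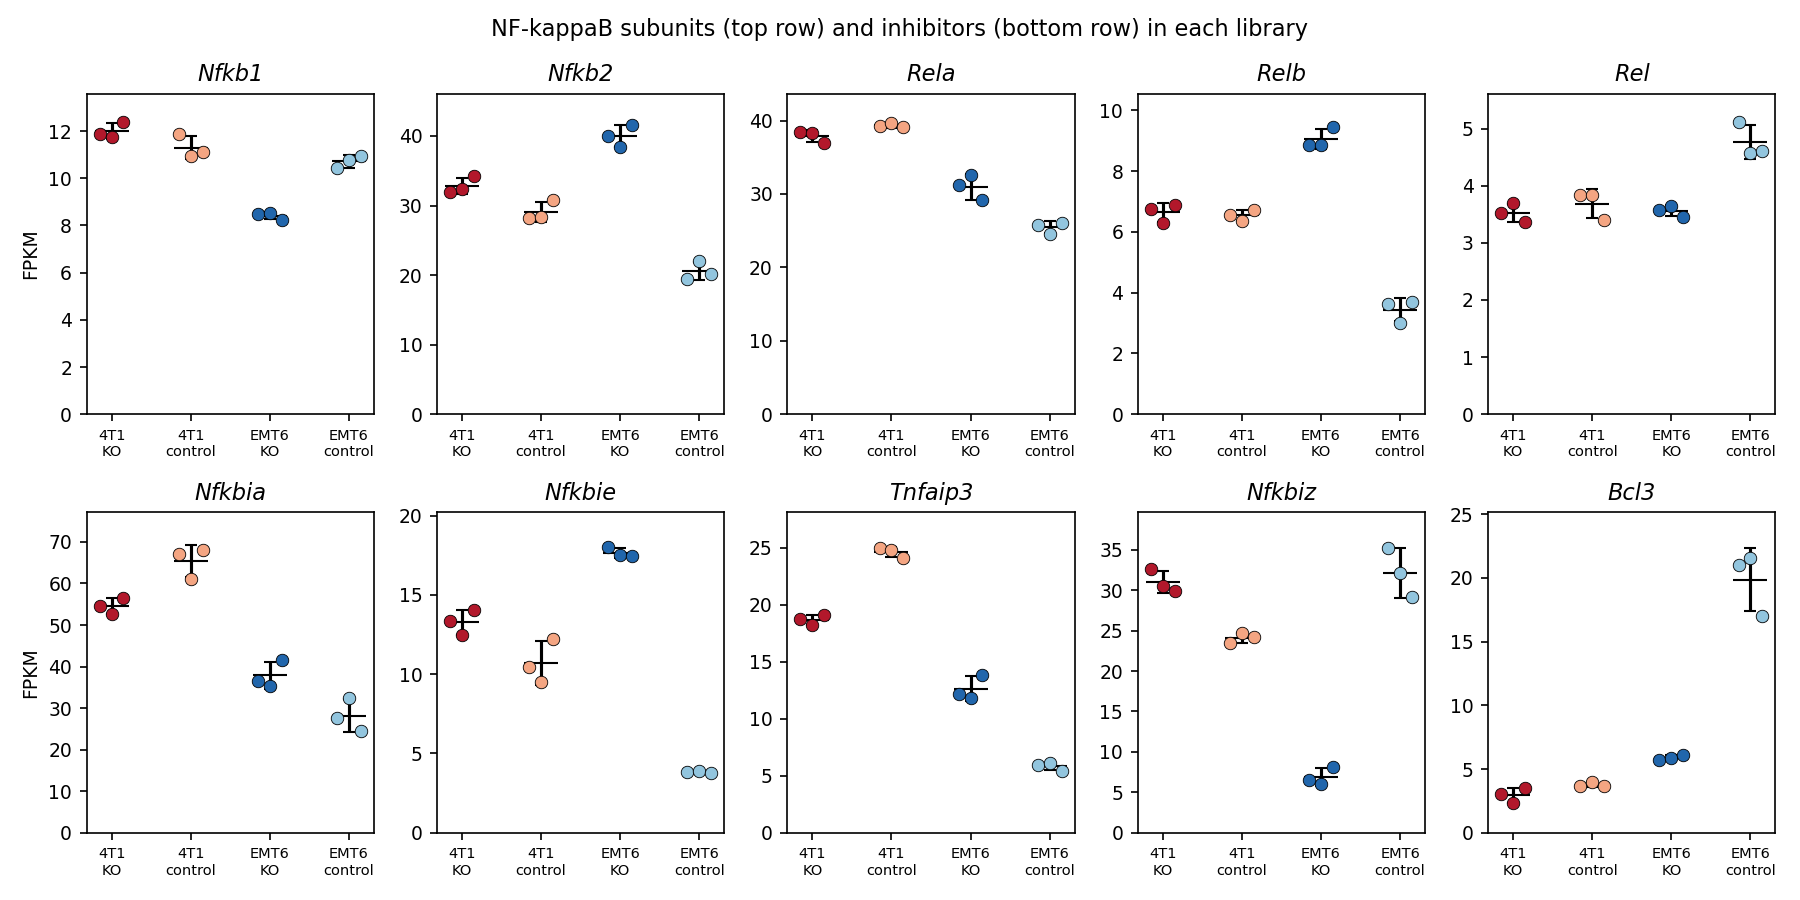
Each panel plots the FPKM of 1 gene on a linear axis from 0, with 1 point per library, a bar for the mean and whiskers for the SD (n = 3 per group). In EMT6, KO and control points are apart in all 10 panels, with Nfkbie at 17.4 to 18.0 FPKM in KO and 3.80 to 3.92 FPKM in control libraries, and Nfkbiz at 5.99 to 8.19 FPKM in KO and 29.1 to 35.3 FPKM in control libraries.

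In 4T1 KO cells the same genes moved little. Of the 10, 2 were called higher and 4 lower, against 28% and 29% of all 13313 tested genes, 57% in all. Of all called 4T1 genes, 49.1% were higher, and 61.1% with scaling by total counts. None of the 10 reached a change of 1 on the log2 scale, which 7.65% of tested genes did. The largest was that of Tnfaip3, with 18.7, 18.2 and 19.1 FPKM in KO libraries and 25.0, 24.8 and 24.1 FPKM in control libraries (log2 change -0.48 ± 0.05, SE, n = 3 per group; edgeR, adjusted p = 3.29e-09). Nfkbia had 54.6, 52.7 and 56.5 FPKM in KO libraries and 67.0, 61.0 and 68.2 FPKM in controls, a log2 change of -0.34 ± 0.05 (edgeR, adjusted p = 4.82e-06). In both genes the KO libraries lay below all controls. These are the best-known feedback inhibitors of the canonical route, and both had risen in EMT6 KO cells.

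Nfkbiz rose in 4T1. It had 32.6, 30.6 and 29.9 FPKM in KO libraries and 23.4, 24.7 and 24.2 FPKM in control libraries, a log2 change of 0.28 ± 0.05 (edgeR, adjusted p = 3.47e-05). Nfkbie had 13.3, 12.5 and 14.04 FPKM in KO libraries and 10.4, 9.52 and 12.2 FPKM in controls (0.23 ± 0.08; edgeR, adjusted p = 0.0134). The Nfkbie call was lost without KO replicate 3 (edgeR, adjusted p = 0.0586), without control replicate 1 (0.0543) and without control replicate 2 (0.0847). Bcl3 stood at 3.01, 2.34 and 3.49 FPKM in KO libraries and 3.65, 3.99 and 3.66 FPKM in controls (-0.43 ± 0.14; edgeR, adjusted p = 0.0121). The Bcl3 call was lost without KO replicate 2 (edgeR, adjusted p = 0.096), without control replicate 2 (0.0519) and with limma on log2 FPKM (0.0525).

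Of the 4T1 subunits only Rela was called, at 38.4, 38.4 and 37.0 FPKM in KO libraries and 39.2, 39.7 and 39.1 FPKM in control libraries. Its log2 change of -0.13 ± 0.05 (edgeR, adjusted p = 0.0202) is small. Scaling by total counts ended the call (edgeR, adjusted p = 0.341), as did a fit among genes of at least 5 FPKM (0.208), limma on log2 FPKM (0.261), and the fits without KO replicate 3 (0.0836) or control replicate 2 (0.0617). Nfkb2 was not called, with a log2 change of 0.10 ± 0.05 (edgeR, adjusted p = 0.0893). Its FPKM did not overlap, at 31.9 to 34.2 in KO and 28.2 to 30.8 in control libraries. It was called higher with scaling by total counts (0.18 on the log2 scale, edgeR adjusted p = 0.00314), a scaling that moves the median of all 4T1 genes by 0.08. It was also called higher under the 5 FPKM filter (0.16; edgeR, adjusted p = 0.00693) and with limma on log2 FPKM (0.17; adjusted p = 0.0188). Nfkb1, Relb and Rel were not called, at 0.01 ± 0.05, -0.06 ± 0.08 and -0.15 ± 0.08, and their KO and control FPKM overlapped. In the other 7 genes the groups did not overlap, against 61.6% of all tested 4T1 genes. Without control replicate 3, Rel was called lower (-0.21; edgeR, adjusted p = 0.0405) and Nfkb2 higher (0.12; edgeR, adjusted p = 0.0422).

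**Figure D2:**
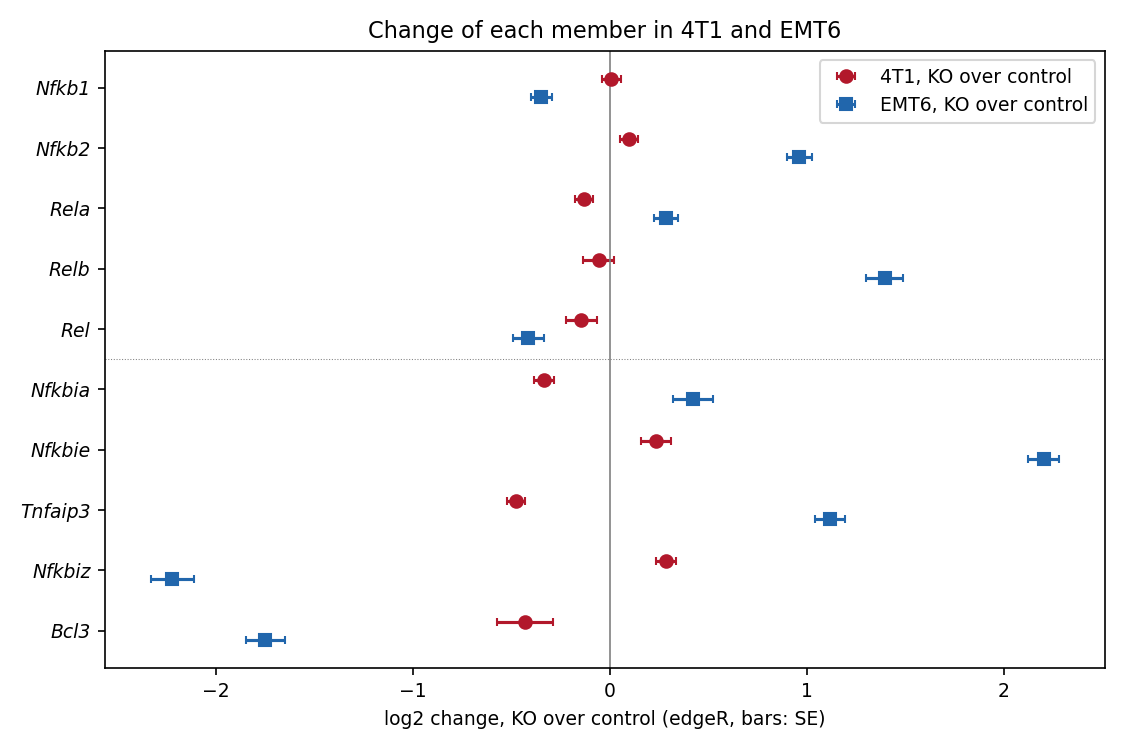
The log2 change of KO over control is plotted for each gene in 4T1 (circles) and EMT6 (squares), with bars for the SE of the edgeR fit and a dotted line between subunits and inhibitors. All 4T1 points lie between -0.48 and 0.28, and EMT6 points reach from -2.22 (Nfkbiz) to 2.2 (Nfkbie).

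The response of the 10 genes was compared between the lines in 1 fit of the 12 libraries with an interaction term for line and KO. All 10 interactions were called, 6 in the direction of a higher change in EMT6 and 4 of a lower one, against 59.9% of 12006 genes tested (29.7% higher and 30.2% lower). The largest were those of Nfkbiz (-2.53 ± 0.13, SE; edgeR, adjusted p = 1.11e-10), Nfkbie (1.95 ± 0.12; edgeR, adjusted p = 2.1e-12), Tnfaip3 (1.57 ± 0.09; edgeR, adjusted p = 5.28e-13) and Relb (1.43 ± 0.12; edgeR, adjusted p = 5.99e-10). Tnfaip3, Nfkbia and Rela were called lower in 4T1 and higher in EMT6, and Nfkbiz the other way round. Nfkbie was called higher in both lines and Bcl3 lower in both. The 4T1 calls of Rela, Nfkbie and Bcl3 were each lost in several of the alternative fits given above. The interaction of Rel (-0.29 ± 0.11; edgeR, adjusted p = 0.0282) was lost without any 1 of 6 libraries, with adjusted p from 0.0501 (EMT6 KO replicate 1) to 0.0916 (4T1 control replicate 3). The others of the 6 were 4T1 KO replicates 1 (0.0519) and 2 (0.075), EMT6 KO replicate 3 (0.065) and EMT6 control replicate 1 (0.0775). The log2 change of Nedd4 itself was -2.01 ± 0.04 (SE) in 4T1 and -3.34 ± 0.06 in EMT6, an interaction of -1.35. The part of this difference in the interactions of the 10 genes was not tested.

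The make-up of the subunit transcripts shifted in EMT6. The summed FPKM of the 5 subunits was 91.9 to 92.1 in EMT6 KO and 64.5 to 65.5 in EMT6 control libraries. Nfkb2 made up 43.5% ± 1.74 of that sum in KO and 31.6% ± 2.0 in control cells (SD, n = 3), and Relb 9.84% ± 0.383 in KO and 5.31% ± 0.592 in control cells. The share of Nfkb1 was 9.14% ± 0.147 in KO and 16.5% ± 0.286 in control cells, and that of Rel 3.87% ± 0.0986 in KO and 7.34% ± 0.509 in control cells. The share of Rela was 33.7% ± 1.85 in KO and 39.2% ± 1.26 in control cells, although its own level rose. In 4T1 the sum was 92.4 to 93.8 FPKM in KO and 89.1 to 91.1 FPKM in control libraries. FPKM are scaled to the total count, a scaling that moves the median log2 change of all 4T1 genes by 0.079. The difference of the sums was not tested. In 4T1 the share of Nfkb2 was 35.3% ± 0.991 in KO and 32.3% ± 1.27 in control cells, and that of Rela 40.8% ± 1.21 in KO and 43.7% ± 0.811 in control cells. The shares are descriptions and were not tested. FPKM divide by exonic length, 12061 bases for Nfkb1, 4584 for Nfkb2, 3072 for Rela, 3885 for Relb and 7466 for Rel. The size of each share therefore depends on these lengths and is not a share of counts.

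**Figure D3:**
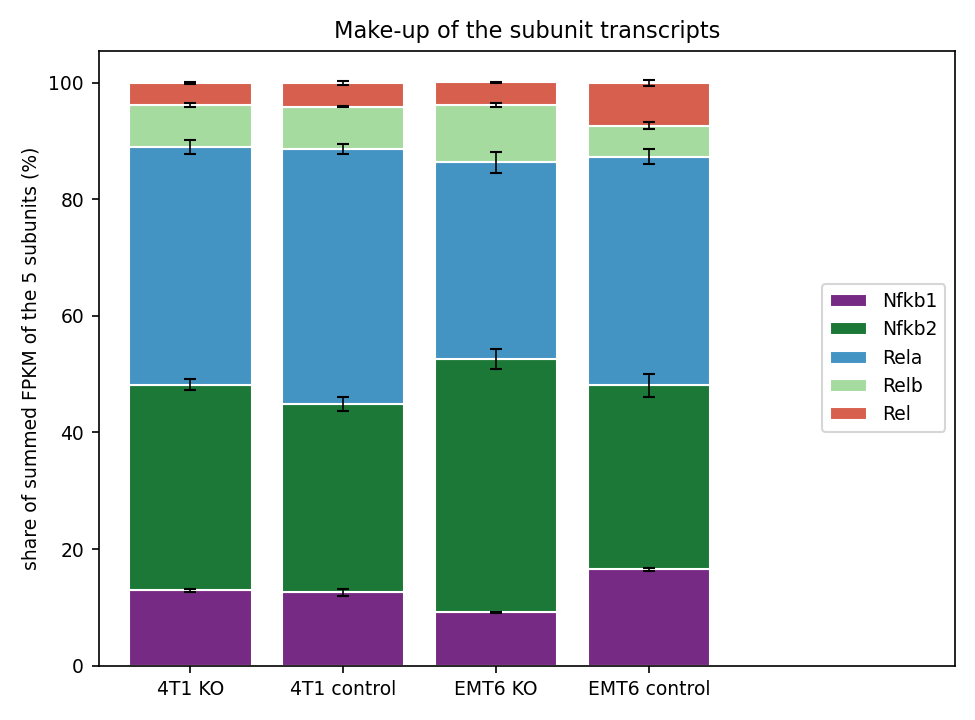
Stacked bars give the mean share of each subunit in the summed FPKM of the 5 subunits for each group, with whiskers for the SD over 3 libraries at the top of each segment. The EMT6 KO bar holds the largest Nfkb2 segment (43.5%) and the smallest Nfkb1 segment (9.14%).

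Levels across the lines are set side by side as FPKM, from separate tables, and their difference between lines was not tested. Nfkbia was the most abundant of the 10 genes per length in 4T1 KO cells (54.6 ± 1.92 FPKM, SD) and in 4T1 control cells (65.4 ± 3.86 FPKM). Bcl3 was highest in EMT6 controls at 19.9 FPKM, then EMT6 KO (5.89), 4T1 control (3.77) and 4T1 KO (2.95), with no overlap between neighbours. For Nfkbie, Relb and Nfkb2 the order was EMT6 KO, 4T1 KO, 4T1 control and EMT6 control. Neighbours in that order overlapped only for Relb, between 4T1 KO and 4T1 control. The EMT6 controls thus held the lowest level of these 3 genes and the EMT6 KO cells the highest. For Nfkbiz, EMT6 control and 4T1 KO libraries overlapped at the top (29.1 to 35.3 and 29.9 to 32.6 FPKM), with 4T1 control next and EMT6 KO last. Tnfaip3, Nfkbia and Rela ran from 4T1 control through 4T1 KO and EMT6 KO to EMT6 control without overlap. Nfkb1 ran from 4T1 KO to 4T1 control, EMT6 control and EMT6 KO, and only the last step did not overlap. For Rel, EMT6 controls stood above the other groups, which overlapped.

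The genes upstream of NF-kappaB did not move in 1 direction in EMT6. Of 18 tested receptors and co-receptors, 8 were called higher and 7 lower (median log2 change 0.05, against 0.00 for all genes tested). That is 83.3% called, against 56% of all genes tested. Il1rl1, the receptor of the alarmin Il33, rose to 9.50 ± 0.0551 FPKM in KO cells, against 1.68 ± 0.178 FPKM in controls (SD, n = 3), and its ligand Il33 fell to 3.21 ± 0.0265 FPKM, against 12.2 ± 0.471 FPKM. Tnfrsf12a, a receptor that can feed the alternative route, rose by 0.50 ± 0.06 on the log2 scale. Il1rap and Il1r1, which together bind interleukin signals of the canonical route, fell by 0.84 ± 0.07 and 0.43 ± 0.06. Of 15 ligands 5 were tested in EMT6, and Il33 was the 1 called (20% of those tested). Tnf itself stood at 0.683 FPKM in KO and 1.07 FPKM in control cells and was not called (edgeR, adjusted p = 0.0682). It was picked after its values were seen.

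Of 47 kinases, adaptors and cofactors, all tested, 16 were called higher and 12 lower in EMT6 (median -0.06). That is 59.6% called, close to the 56% of all genes tested. Map3k14, the kinase of the alternative route, had 5.72, 5.16 and 5.68 FPKM in KO libraries, against 2.63, 2.55 and 2.45 FPKM in controls. Its log2 change was 1.12 ± 0.08 (edgeR, adjusted p = 1.25e-08) and its groups did not overlap. The interaction with line was 1.13 (edgeR, adjusted p = 8.13e-09), and in 4T1 it stood at -0.03 ± 0.08 and was not called (edgeR, adjusted p = 0.762). Traf3, Traf2 and Birc3 are parts of the complex that degrades the Map3k14 protein, and were chosen here after their values were seen. They rose by 0.86, 0.48 and 0.55 in EMT6. Birc2, of the same complex, stood at -0.01 and was not called. In the canonical kinase complex the scaffold Ikbkg rose by 0.90 ± 0.07 and the kinase Ikbkb fell by 0.64 ± 0.06. Ikbke, a related kinase, fell to 1.45 ± 0.161 FPKM in KO cells, against 5.83 ± 0.577 FPKM in controls.

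Of 18 tested negative regulators, 6 were called higher and 12 lower in EMT6 (median -0.28). That is 100% called, against 56% of all genes tested. Usp18, a protease induced by interferon, rose by 2.51 ± 0.15, and Itch, a ligase of the NEDD4 family that works with Tnfaip3, by 0.42 ± 0.06. Zc3h12a, an RNase known to degrade inflammatory messenger RNAs and Nfkbiz in particular, fell to 7.68 ± 0.276 FPKM in KO cells, against 19.2 ± 3.12 FPKM in controls. Pdlim2, which promotes turnover of nuclear Rela, fell by 1.10 ± 0.06. The remaining inhibitor Nfkbib had 14.7 FPKM in KO and 13.6 FPKM in control cells and was not called (edgeR, adjusted p = 0.356), and Nfkbid was at 0 in every EMT6 library. Neither was called in 4T1.

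Target genes of EMT6 also went both ways. Of 53 listed targets 40 were tested, and 17 were called lower and 11 higher (median -0.03). That is 70% called, against 56% of all genes tested. Changes of at least 1 on the log2 scale were lower for 14 and higher for 5. Of all tested genes, 10% made a change of that size in either direction. Lcn2, an iron-binding defence protein whose induction in mouse macrophages needs Nfkbiz, had 8, 10 and 10 counts in KO libraries, against 2755, 3282 and 4702 counts in controls. Csf3, the granulocyte growth factor, had 7, 3 and 1 counts in KO libraries and 302, 379 and 347 counts in controls (edgeR, adjusted p = 2.58e-12). The neutrophil chemokine Cxcl5 fell to 26.6 ± 1.57 FPKM in KO cells, against 312 ± 29.4 FPKM in controls. The antiprotease Slpi fell by 2.76 ± 0.06 on the log2 scale, the transcription factor Cebpd fell by 2.25 ± 0.11 and complement C3 fell by 1.07 ± 0.06.

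The targets that rose in EMT6 KO cells included Vcam1, an adhesion molecule, at 11.98 ± 0.251 FPKM in KO and 0.873 ± 0.0777 FPKM in control cells. The chemokine Cxcl10 rose by 3.34 ± 0.26 from a low level. It had 127, 142 and 81 counts in KO libraries, against 9, 14 and 9 counts in controls. Irf1, an interferon-response factor, rose by 0.67 ± 0.07, and Tapbp, Tap1 and Psmb9, which serve antigen presentation, by 1.23 ± 0.06, 0.53 ± 0.06 and 0.61 ± 0.07. Cxcl10 and these 4 genes are also interferon targets. Chemokines and colony-stimulating factors were on both sides: Ccl5 (1.67) and Csf1 (0.33), named here after their values were seen, were called higher in EMT6. Cell-type markers also differed. The summed FPKM of 10 leukocyte markers was 7.87 to 9.64 in EMT6 KO and 18.2 to 22.4 in EMT6 control libraries, nearly all of it Cd68 (7.39 in KO and 19.4 in control cells), with 8 of the 10 averaging under 0.1 FPKM in either group. Csf1r, the other leukocyte marker tested, was called higher, at 1.04 FPKM in KO and 0.513 FPKM in control cells. The sum of 7 fibroblast markers was 211 to 243 FPKM in KO and 158 to 179 FPKM in control libraries, most of it Col1a1 (202 FPKM in KO and 165 FPKM in control cells). Of the 4 tested, 3 were called higher and 1 lower. Col3a1 stood at 6.77 FPKM in KO and 0.0467 FPKM in control cells, and Pdgfrb at 9.78 FPKM in KO and 0.953 FPKM in control cells, while Pdgfra was the 1 called lower (-0.20). Their part in the results was not tested.

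In 4T1, 18 of 43 tested targets were called higher and 14 lower (median 0.17). That is 74.4% called, against 57% of all genes tested. Csf3 fell to 54.0 ± 2.37 FPKM in KO cells, against 143 ± 4.24 FPKM in controls, so it fell in both lines, and by 5.12 more on the log2 scale in EMT6 (edgeR, adjusted p = 4.58e-14). Il23a fell by 1.54 ± 0.08, Plau by 1.30 ± 0.05, Lif by 1.13 ± 0.06, Ier3 by 0.70 ± 0.05 and the prostaglandin synthase Ptgs2 by 0.68 ± 0.04. Cxcl5 and C3 rose in 4T1, by 0.41 ± 0.04 and 0.89 ± 0.05, and Csf1, Icam1, Gadd45b and Cxcl16 rose by 1.03 ± 0.04, 1.93 ± 0.17, 0.69 ± 0.07 and 0.83 ± 0.09. Icam1 was low, at 2.42 FPKM in KO and 0.6 FPKM in control cells. The interaction was -3.98 for Cxcl5 (edgeR, adjusted p = 7.99e-20) and -1.98 for C3 (edgeR, adjusted p = 2.14e-15). Lcn2 stood at 19.9 FPKM in KO and 18.1 FPKM in control cells of 4T1 and was not called (edgeR, adjusted p = 0.43).

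**Figure D4:**
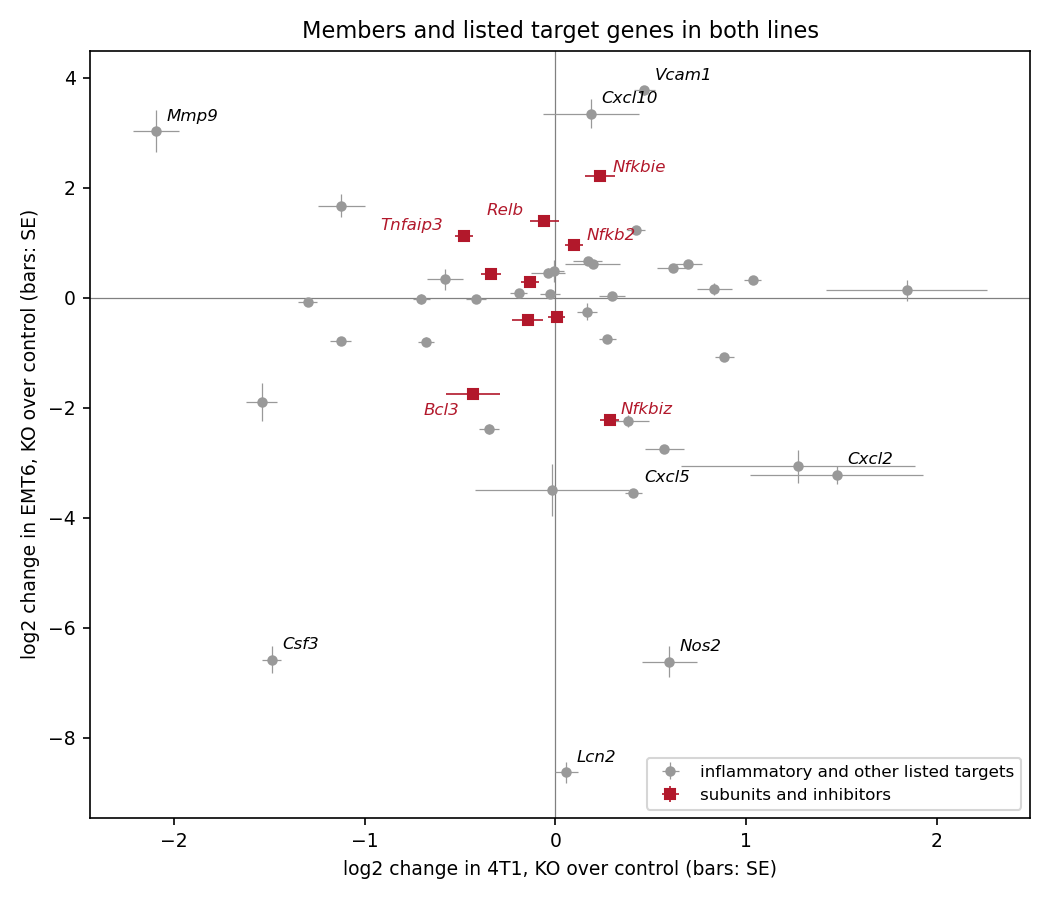
The log2 change of KO over control in EMT6 (vertical) is plotted against that in 4T1 (horizontal) for the 37 listed targets tested in both lines (grey) and the 10 subunits and inhibitors (red squares), with bars for the SE of the fit; labels mark genes chosen after their values were seen. The lowest point is Lcn2 (-8.63 in EMT6 and 0.06 in 4T1), and the members lie within -2.22 and 2.2 in EMT6.

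In 4T1 the genes upstream of NF-kappaB also went both ways. Of 18 tested receptors 3 were called higher and 5 lower (44.4%, against 57% of all genes tested). Ltbr, a receptor of the alternative route, stood at 26.0 ± 1.26 FPKM in KO and 33.9 ± 1.58 FPKM in control cells. Cd14 stood at 8.13 ± 0.232 FPKM in KO and 13.01 ± 0.648 FPKM in control cells. Il17rc and Tlr2 rose by 0.60 ± 0.12 and 0.41 ± 0.10. Of 7 tested ligands 2 were called higher and 2 lower (57.1%), among them Il1a (0.21 ± 0.05) and Tnfsf9 (-1.17 ± 0.12). Of 47 kinases, adaptors and cofactors 12 were called higher and 13 lower (53.2%, against 57% of all genes tested), with Ikbkg at 0.63 ± 0.06, Birc2 at 0.45 ± 0.07, Ube2n at -0.51 ± 0.05 and Traf3ip2, an adaptor of interleukin receptors, at -0.85 ± 0.08. Ikbkg rose in both lines. Of 17 negative regulators 8 were called higher and 3 lower (64.7%, against 57% of all genes tested). Cyld, a deubiquitinase that restrains the canonical route, rose to 14.9 ± 0.399 FPKM in KO cells, against 8.14 ± 0.367 FPKM in controls, and Otud7b rose by 0.42 ± 0.05, while Sigirr and Tnip1 fell by 0.68 ± 0.06 and 0.46 ± 0.06. Counts were spread over 20937 to 21264 genes in 4T1 KO libraries, against 18836 to 19017 genes in control libraries. The leukocyte marker sum of 4T1 was 18 to 21.5 FPKM in KO libraries, against 11.4 to 13 FPKM in controls. Most of it was Cd68 (18.6 FPKM in KO and 11.5 FPKM in control cells), the 1 leukocyte marker called of 3 tested. Adgre1 (-0.37) and Csf1r (-0.57) were not called. The nuclear RNA Malat1 stood at 478.6 to 560.2 CPM in 4T1 KO and 69.3 to 155.0 CPM in 4T1 control libraries, and Neat1 at 240.5 to 333.2 CPM in KO and 51.6 to 84.6 CPM in control libraries. In EMT6, Neat1 stood at 28.2 to 36.1 CPM in KO and 66.8 to 138.4 CPM in control libraries. Malat1 overlapped there, at 157.9 to 200.2 CPM in KO and 188.7 to 449.6 CPM in control libraries. Their part in the results was not tested.

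The genes most like 3 of the members were ranked by Pearson's r over the 12 libraries, on log2 CPM centred within each line, among 10264 genes. The nearest to Nfkb2 were Ptpa (r = 0.996), Id2 (0.994) and Atp6ap1 (0.992). Nearest to Nfkbiz stood the kinase gene Ikbke (0.994), Prickle1 (0.993) and Als2cl (0.993), and nearest to Nfkbia Arpc4 (0.983), Mcm7 (0.968) and Ugdh (0.964). Among the members, Nfkb2 and Nfkbie had an r of 0.99 and Nfkb2 and Nfkbiz one of -0.933. With 4 groups behind the 12 libraries, these values are set mainly by the differences between KO and control, and they are descriptions.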

How the data were processed

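Messenger RNA of 12 libraries was measured, 3 for each of 4T1 KO, 4T1 control, EMT6 KO and EMT6 control, and samples were grouped by their titles. The build GRCm38 and the tools HTSeq 0.6.1, HISAT2 2.2.1, cutadapt 1.9.1 and DESeq2 are named, without roles, per the submitters' processing notes. The deposited tables hold raw read counts and FPKM per gene. FPKM recomputed from the deposited counts, library totals and exonic sizes matched the deposited values within 0.005. The tables' gene coordinates shared start and end with 2.83% of genes in GENCODE M21, an annotation of GRCm38, so they were used only to find overlapping genes. Of 199 listed symbols 198 were found directly, and Skp1a through its M21 identifier (listed as Skp1).

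Counts were tested in R 4.3.3 with edgeR 4.0.16 in each line (filterByExpr, TMM, robust quasi-likelihood fit, Benjamini-Hochberg adjustment over all tested genes, 2-sided), and KO by line as an interaction. The SE was taken from the log2 change and the F statistic. The common dispersion gave a coefficient of variation of 4.82% (4T1) and 6.73% (EMT6). Libraries held 13705612 to 19761604 counts. Changes of 1 on the log2 scale in simulated 4T1 and EMT6 counts of 13313 and 12890 genes were recovered for 90% and 97% of the changed genes. Changes of 0.5 were recovered for 71% and 79%, with 6.4% (4T1) and 3.83% (EMT6) of calls false. The simulation changed 100 genes by each amount and gave all genes the same dispersion. In the data 57% (4T1) and 56% (EMT6) of genes were called, so these rates need not hold for the tests above. Pairs of libraries within a group differed by more than sampling noise (chi-square over its degrees of freedom, 2.36 to 10.9), so none was merged. The alternatives used DESeq2 1.42.0, limma 3.58.1 (voom, and log2 of FPKM with a pseudocount of 0.1), other scalings and filters, a replicate block and leaving out each library.

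The members and the gene lists were chosen with earlier results of these data known. Named genes are the 10 members, Nedd4, and per line and direction up to 2 called genes of each upstream list and up to 6 targets by lowest adjusted p, with a group mean of at least 1 FPKM and groups that do not overlap. Any other gene was chosen after its values were seen.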

Additional observations from a re-analysis of the deposited data

Results flagged for a closer look

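The change of each of the 10 genes on knockout differed between the lines in the test of the interaction (EMT6 change minus 4T1 change, log2, edgeR over 12 libraries). The differences were -0.38 for Nfkb1 (adjusted p = 6.07e-05), 0.85 for Nfkb2 (2.84e-09), 0.40 for Rela (8.72e-05), 1.43 for Relb (5.99e-10) and -0.29 for Rel (0.0282). Those of the inhibitors were 0.74 for Nfkbia (1.66e-05), 1.95 for Nfkbie (2.1e-12), -2.53 for Nfkbiz (1.11e-10), 1.57 for Tnfaip3 (5.28e-13) and -1.34 for Bcl3 (7.13e-07). Of all genes tested, 59.9% had a called interaction. No group had enough libraries for a test of single outlying libraries.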

How the results depend on the processing

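In EMT6, all 139 values of the 10 genes under 14 alternatives kept their direction and their call. In the interaction, 191 of 198 values kept both, and the other 7 were losses of the Rel call, with adjusted p up to 0.176. In 4T1, 115 of 138 values kept both. There 2 members were called lower with limma on log2 FPKM and 2 under a filter at a mean of 5 FPKM, which removes Rel and Bcl3. That filter also left 2 members with a called lower interaction, and 9 targets called higher and 11 lower in the interaction, since fewer genes were tested. It called 4897 genes in 4T1, 4813 in EMT6 and 4379 in the interaction, against 7589, 7224 and 7197 without it. Leaving out 1 library gave 1 to 3 members higher and 2 to 5 lower in 4T1. The Relb change in 4T1, never called, turned to 0.0213 with total-count scaling, 0.0062 under the 5 FPKM filter and 0.0194 with limma on log2 FPKM. That of Nfkb1, never called in 4T1, turned to -0.024 with no low-count filter, and ran from -0.018 to 0.0397 when 1 library was left out. The cause was not tested.

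Total-count scaling raised the share of called 4T1 genes that were higher to 61.1%, against 49.1%. Deviations of same-numbered KO and control libraries correlated at -0.13 to 0.00915, and those of other pairs at -0.0397 to 0.127. Each library correlated best with a different number. With so few libraries per group, these values cannot show whether the samples were paired. With the replicate block, 7676 genes were called in 4T1, 6830 in EMT6 and 6997 in the interaction, and 2 members were higher and 4 lower in 4T1, 6 higher and 4 lower in EMT6.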
